A study of Caenorhabditis elegans with 12 samples.

Results

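The comparison described here sets Caenorhabditis elegans that carry mutations in both pfd-6 and daf-2 against animals that carry the daf-2 mutation alone. It asks which transcripts differ when the prefoldin gene pfd-6 is also mutated in animals with reduced insulin/IGF-1 signalling. It uses 6 of the 12 mRNA sequencing libraries of the study, chosen by the genotype each is labelled with: 3 of strain CF1041, genotype daf-2(e1370), and 3 labelled pfd-6(gk493446); daf-2(e1370), called the double mutant below. The other 6 libraries, 3 of the N2 wild type and 3 of pfd-6(gk493446), are used only to place the results. All libraries came from whole animals at day 1 of adulthood. The animals were raised on control RNA interference bacteria to the L4 larval stage and then kept on plates with FUdR, a drug that blocks the growth of progeny. From L4 on the bacteria on those plates were control or targeted pfd-6, and the plates used for a given library are not stated in the labels. The series design text also names hsf-1 RNA interference in the daf-2 mutant without tying it to any library, so a bacterial treatment that differed between libraries cannot be told apart from genotype. Both groups carry daf-2(e1370), a reduction-of-function allele of the insulin/IGF-1 receptor gene, so the comparison says nothing of animals with intact signalling.

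Prefoldin is a complex of several small subunits that takes newly made actin and tubulin chains and hands them to the TRiC/CCT chaperonin for folding; pfd-6 encodes one of the subunits. Mutation of daf-2 lets the transcription factor DAF-16/FOXO enter the nucleus and lengthens life. Adult hermaphrodites hold a germline that makes sperm in the last larval stage and then switches to oocytes, and a cuticle of collagens that is rebuilt at each larval molt, so sperm and collagen transcripts are among the most stage-dependent of this animal.

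Total expected counts ran from 22295483 to 32374704 in the 6 libraries. The daf-2 replicate 3 library stood apart. Ribosomal protein transcripts took 13.2%, 10.1% and 1.44% of counts in daf-2 replicates 1, 2 and 3, and 10.8%, 10.3% and 10% in the double mutant. Genes with under 1000 bases of exon took 36.2%, 25.6% and 14.5% of counts in daf-2, and 27.3%, 26.5% and 24.7% in the double mutant. In pfd-6 replicate 3 the ribosomal protein share was 0.62%. The protocol states 3 biological repeats, with the last set added later, without naming its replicate number. Because whole animals were sequenced, fewer cells of a type and less RNA per cell cannot be told apart.

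Transcripts of 802 genes differed between the double mutant and daf-2 at an adjusted p under 0.05, which is 5.53% of the 14502 genes tested (edgeR's quasi-likelihood test with the replicate number as a block, Benjamini-Hochberg adjustment). The differences were uneven: 696 genes (4.8% of those tested) were higher in the double mutant and 106 (0.731%) were lower. In 612 of the 696 higher genes double mutant replicate 3 was the highest double mutant library. Without that library, with the block kept, 758 genes were higher and 639 lower, in a fit with 1 residual degree of freedom. Of the 696, 375 could then be tested, and all 375 were again called higher. That fit reuses the remaining libraries, so it is no independent check. The same kind of fit without daf-2 replicate 2, or without double mutant replicate 2, called 0 genes. These counts cannot show how far the calls rest on 1 library. The higher genes had a median log2 fold change of 3.54 and the lower genes of -1.71, beside 0.04 over all genes tested. Of the higher genes 169 were in one of the 66 gene lists examined, and among these lists the sperm lists and the cuticle collagens gave the most calls. Of the lower genes 16 were in a list. A sequence name or ID alone was given for 60.3% of the higher and 65.1% of the lower genes, against 43.1% of those tested. Of the higher genes, 318 reached the minimum of 10 counts in 3 libraries only through the double mutant, and so had to differ to be tested at all, as did 11 of the lower genes through daf-2. Most of the higher transcripts were scarce: 138 averaged at least 10 CPM (counts scaled to a common library size and composition) in the double mutant and 125 averaged under 1 CPM.

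**Figure D1:**
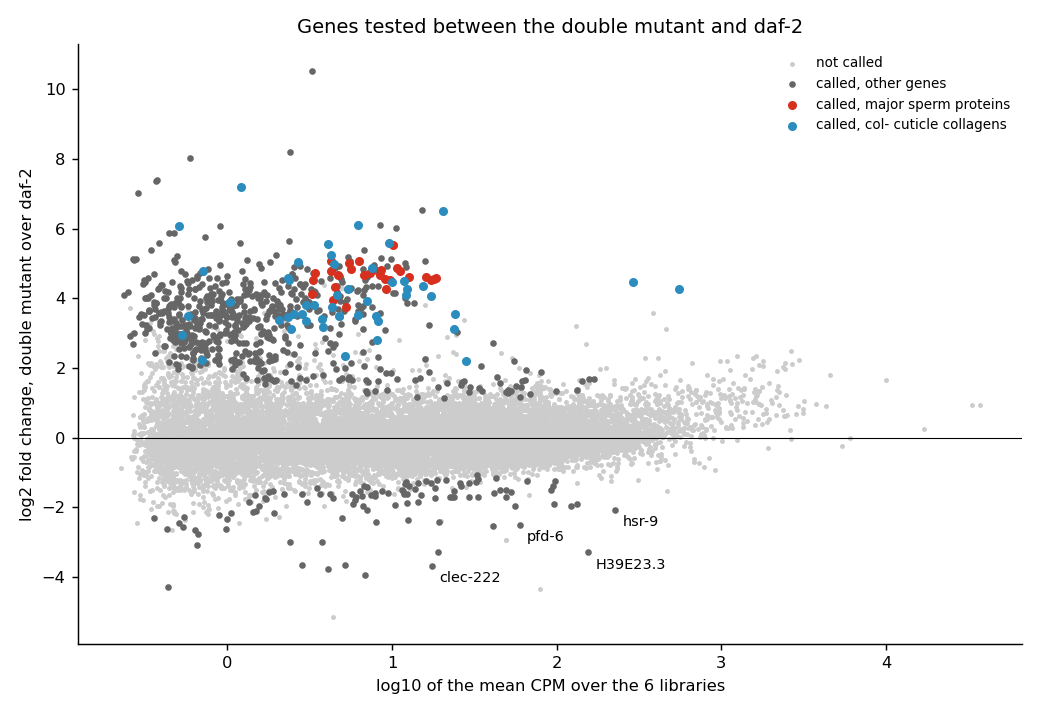
Log2 fold change of the double mutant over daf-2 (vertical axis) against the log10 of the mean CPM over the 6 libraries (horizontal axis), 1 point per gene tested. Called genes, at an adjusted p under 0.05, lie mostly above 0; the 27 major sperm proteins (red) sit together between 3 and 6, and the 48 called col- collagens (blue) reach from scarce to abundant transcripts.

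The mutated gene itself was measured first. Transcripts of pfd-6 (WBGene00009004; WBcel235, chromosome I, 7282964 to 7283762, minus strand) stood at 159, 79.6 and 67.9 CPM in daf-2 replicates 1, 2 and 3, and at 17.1, 15.4 and 17.9 CPM in the double mutant. Every double mutant library was below every daf-2 library, and the double mutant libraries lay close together while the daf-2 libraries spread. The log2 fold change was -2.51 (SE 0.32, adjusted p = 0.00713, edgeR), and -3.05 for pfd-6 over N2 in the libraries with daf-2 intact. Transcripts of daf-2 (log2 fold change 0.72, adjusted p = 0.25), daf-16 (0.24, adjusted p = 0.707) and hsf-1 (0.09, adjusted p = 0.875) did not pass.

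Sperm transcripts rose together. The major sperm proteins (MSPs) form the cytoskeleton of the crawling nematode sperm and, once released, signal to oocytes. All 27 MSP genes tested, of 31 annotated, were higher in the double mutant, with a median log2 fold change of 4.67, and in each of the 27 every double mutant library was above every daf-2 library, as it was for 16.1% of all genes tested. None of the 27 needed the double mutant alone to be tested. Summed over the family, MSP transcripts came to 26.3, 16.3 and 7.78 CPM in daf-2 and to 323, 258 and 673 CPM in the double mutant (12-library scaling). Double mutant replicate 3 was the highest of these 6 libraries and daf-2 replicate 3 the lowest. The gene with the smallest p, msp-40, had 0.852, 0.761 and 0.42 CPM in daf-2 and 18, 14.3 and 29.7 CPM in the double mutant, a log2 fold change of 4.87 (SE 0.47, adjusted p = 0.00625, edgeR). The most abundant, msp-51, had 2.01, 1.42 and 0.807 CPM in daf-2 and 28.2, 23.8 and 55.1 CPM in the double mutant, with no overlap (log2 fold change 4.60). MSP genes are near-identical copies, so reads can be shared between them and the values of single members are uncertain, while the family sum depends less on how reads were split.

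The other sperm lists held members that did not pass. Of 27 tested small sperm protein genes (the ssp, ssq, msd and nspd families), 21 were higher and none was lower (median log2 fold change 4.26); 7 of the 27 reached the count minimum only through the double mutant. One gene under the symbol ssp-9 (WBGene00006040) had no count in any daf-2 library and 3.9, 4.12 and 11.7 CPM in the double mutant, which is at least 182-fold higher than 3 counts over the daf-2 group. The sperm chromatin gene spch-3 went from 0.784, 0.563 and 0 CPM to 15, 14 and 31.4 CPM (log2 fold change 5.53, SE 0.95, adjusted p = 0.0159, edgeR). In the list of spermatogenesis and sperm activation genes 12 of 32 were higher and the median was 1.74. Those 12 included gsp-4, a sperm protein phosphatase (log2 fold change 4.35), smz-1, a PDZ-domain sperm protein (3.13), and snf-10, a transporter that sperm need for activation (3.87). Members that did not pass included spe-11 (2.41, adjusted p = 0.0512) and spe-4 (1.77, adjusted p = 0.124), and 7 of the 32 had values below 0, among them swm-1 (-0.94, adjusted p = 0.116). In 4 of those 7 every double mutant library was below every daf-2 library, as it was for 12.3% of all genes tested. Of the 32, 5 reached the count minimum only through the double mutant, and the median ranged from 0.84 to 2.04 when 1 library was left out.

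A few regulators of sperm formation also rose. The fog-3 gene, which commits germ cells to the sperm fate, had 0.92, 0.96 and 0.839 CPM in daf-2 and 12, 12.3 and 11.9 CPM in the double mutant. The 3 libraries of each genotype nearly coincided, and the log2 fold change of 3.73 (SE 0.33, adjusted p = 0.00625, edgeR) was 3.67 without daf-2 replicate 3. It was the only one of 21 tested germline sex determination genes to pass, where 4.8% of all genes tested were higher. That count is near the share over all genes, and the list median was 0.13, so fog-3 does not speak for the list. Among those that did not pass were fog-1 (0.15), fem-3 (-0.62) and tra-1 (1.21). Of 18 Argonautes, 2 were higher, alg-3 and alg-4, which act with small RNAs in spermatogenesis. Transcripts of alg-3 went from 0.443, 0.265 and 0.355 CPM to 5.11, 4.22 and 7.56 CPM, without overlap (log2 fold change 3.96, SE 0.39, adjusted p = 0.00625, edgeR). Transcripts of alg-4 went from 0.239, 0.331 and 0.161 CPM to 4.19, 3.66 and 9.12 CPM, also without overlap (4.40, SE 0.53).

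Some members of small, less described families were also higher. Of 7 tested nsph genes (nematode-specific peptides), 5 were higher, where 4.8% of all genes tested were higher. Transcripts of nsph-3.2 went from 1.12, 0.364 and 0.678 CPM to 15, 12.3 and 42.8 CPM. Other families were noticed only after the values were seen. They were ttbk (tau tubulin kinase-like), with 6 of 7 tested genes higher, and msrp with 4 of 6. The others were snf (sodium neurotransmitter symporter-like) with 4 of 10 and nep (neprilysin-like peptidases) with 4 of 16. These families were picked for their number of higher genes, so the counts are no test of them. The ttbk-4 gene, for one, went from 0.102, 0.0662 and 0.129 CPM to 1.91, 1.81 and 3.68 CPM. It had under 10 counts in every daf-2 library, so it was tested only through the double mutant and had to differ.

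Oocyte, embryo and male transcripts gave no calls with all 6 libraries. The lists were small, and 5.53% of all genes tested were called, so few calls would be looked for in any of them. None of 27 tested oocyte and eggshell genes passed with edgeR, none had an unadjusted p under 0.05 and DESeq2 also called 0; the median log2 fold change was 0.21. The 24 germline and P granule genes had 0 calls by either tool (1 unadjusted p under 0.05 with edgeR, median 0.30), and so did the 14 tested embryo genes (4 unadjusted, median -0.67) and the 6 vitellogenins (0 unadjusted, median 0.31). Only 3 of 14 male-specific genes had enough counts to be tested, with 0 calls by either tool and 0 unadjusted. Without daf-2 replicate 3, with the block kept, 1 of the 3 was called lower, and the oocyte, germline, embryo and vitellogenin lists still had 0 calls. The summed level of the 14 male-specific genes was 2.74, 2.74 and 2.78 CPM in daf-2 and 2.50, 2.72 and 3.30 CPM in the double mutant. In N2 it ran from 2.28 to 2.85 CPM.

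The higher genes were unevenly spread over the chromosomes. They made up 8.68% of tested genes on chromosome IV and 1.36% on the X chromosome, with 6.26% on I, 4.99% on II, 3.11% on III and 3.95% on V. With the MSP, small sperm protein and spermatogenesis lists left out, the shares were 7.5% on IV and 1.36% on X. The lower genes ranged from 0.341% of tested genes on X to 1.32% on V.

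**Figure D2:**
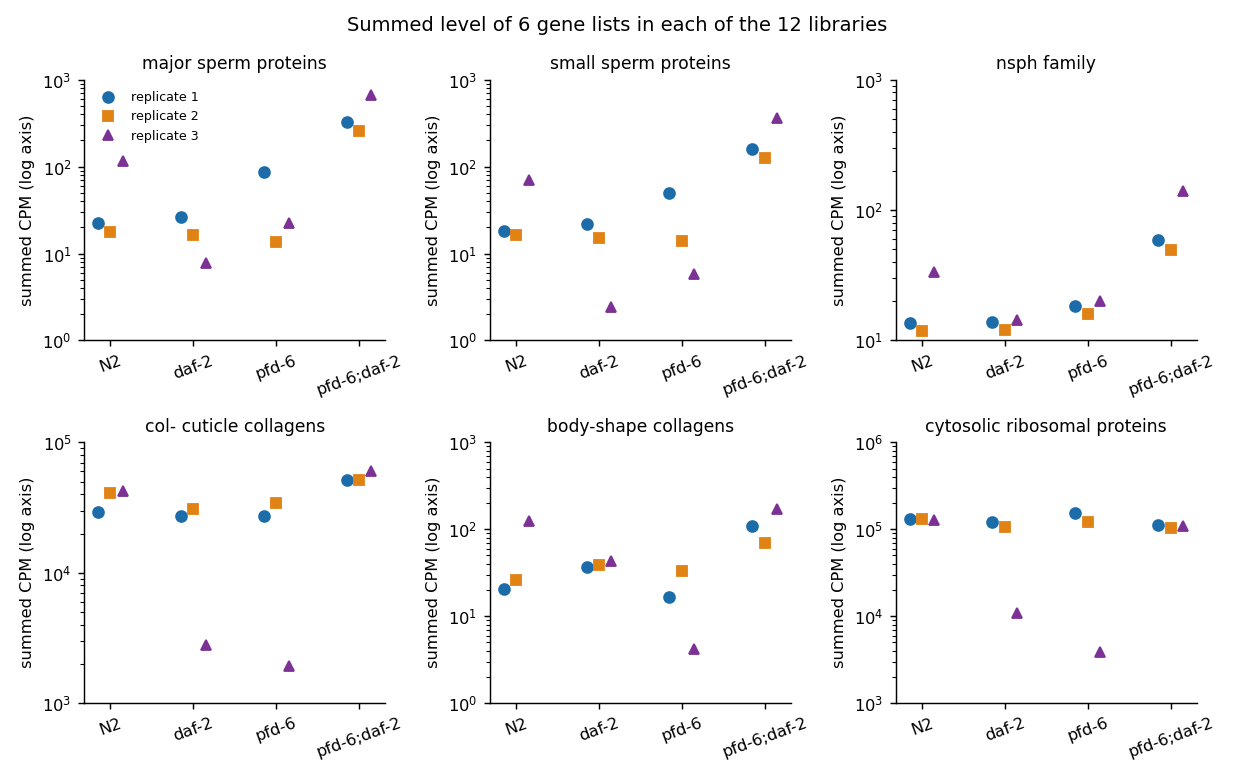
Summed CPM (log axes) of 6 gene lists in each of the 12 libraries, by genotype; circles, squares and triangles are replicates 1, 2 and 3. The double mutant stands above daf-2 in every sperm and collagen panel, N2 replicate 3 is also raised in the sperm panels (116 CPM for the major sperm proteins), and the ribosomal proteins fall in daf-2 and pfd-6 replicate 3.

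Cuticle collagens were the second large group. Of 117 tested col- genes, 48 were higher and none was lower, with a median log2 fold change of 2.47; 13 of the 117 reached the count minimum only through the double mutant. In 100 of the 117 every double mutant library was above every daf-2 library, as it was for 16.1% of all genes tested. Summed col- transcripts were 27200, 30800 and 2770 CPM in daf-2 and 51400, 51700 and 60600 CPM in the double mutant, so daf-2 replicate 3 was low by itself and the other daf-2 libraries were still below the double mutant. Replicate pair by replicate pair, the median collagen differed by 1.32, 1.11 and 3.79 on the log2 scale.

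The collagens that passed were mostly scarce ones. Among the 28 col- genes that averaged at least 100 CPM over the 6 libraries, 2 were called (median log2 fold change 2.1, median SE 1.0). Yet in 26 of the 28 all double mutant libraries were above all daf-2 libraries, against 16.1% of all genes tested. Among the 89 under 100 CPM, 46 were called (median 3.12, median SE 0.63). The abundant col-122 had 1700, 2460 and 148 CPM in daf-2 and 4210, 4690 and 4520 CPM in the double mutant and did not pass (log2 fold change 2.23, SE 1.06, adjusted p = 0.286, edgeR); without daf-2 replicate 3 its log2 fold change was 1.11. By contrast col-145 had 0.239, 0.232 and 0.226 CPM in daf-2 and 6.98, 3.86 and 15 CPM in the double mutant (5.0, SE 0.49, adjusted p = 0.00625). Transcripts of col-81 went from 53.4, 54.2 and 2.71 CPM to 531, 475 and 628 CPM, without overlap (4.47, SE 0.99, adjusted p = 0.041; adjusted p = 0.0536 without the block). The call of col-117, the steepest collagen rise among genes with at least 10 CPM, rested on the block: its log2 fold change of 6.50 had an adjusted p of 0.0427 with it and 0.177 without it.

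Collagens whose mutants are misshapen (dumpy, roller, squat, blistered or long) moved less uniformly. Of 20 tested, 9 were higher and 1, dpy-14, was lower. Without the block 3 were higher, where 4.34% of all genes tested were higher and 0.503% lower. With an adjustment for transcript length 0 of the 20 were called. Transcripts of dpy-13 went from 1.67, 0.165 and 0.0968 CPM to 12.7, 5.73 and 26.2 CPM (log2 fold change 4.95, SE 0.87, adjusted p = 0.017, edgeR), and those of dpy-5 from 1.70, 0.0993 and 0.161 CPM to 11.3, 5.80 and 20.7 CPM. The groups did not overlap for either gene. The dpy-14 gene had 2.39, 6.55 and 19.8 CPM in daf-2 and 0.956, 2.24 and 2.85 CPM in the double mutant; these overlapped, and its adjusted p was 0.0332 with the block and 0.162 without it. Among 17 genes of collagen processing and assembly 16 could be tested, and 0 passed with edgeR or DESeq2 (3 at an unadjusted p under 0.05 with edgeR, median 0.15).

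Other cuticle genes followed in part. Of 32 tested hedgehog-related genes, secreted proteins that the nematode epidermis makes, 8 were higher and 1 lower (median 0.73), and 4 were higher without the block. Without daf-2 replicate 3, with the block, 11 of 31 were higher and 2 lower and the median was 0.25; leaving out 1 library at a time gave medians from 0.10 to 1.29. The groundhog-like gene grl-16 went from 0.511, 0.265 and 0.549 CPM to 10.6, 5.04 and 30.5 CPM (log2 fold change 4.84, SE 0.45, adjusted p = 0.00625, edgeR). The lower member was grd-4, at 19.8, 14.4 and 17.2 CPM in daf-2 and 6.14, 6.79 and 7.46 CPM in the double mutant (-1.33, adjusted p = 0.0393). Of 25 patched-related receptors 0 passed with edgeR or DESeq2 (4 at an unadjusted p under 0.05 with edgeR, median 0.10), as was so for 20 molting proteins (1 unadjusted, median -0.06). The block fit without daf-2 replicate 3 called 4 of 23 patched-related receptors and 1 of 20 molting proteins higher.

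Muscle and pharynx genes leaned upward without many calls. All 28 tested muscle genes had positive log2 fold changes (median 1.11), and 2 passed, unc-89, the obscurin homologue, and deb-1, vinculin. Transcripts of deb-1 stood at 34.1, 85.1 and 53.9 CPM in daf-2 and 91.1, 152 and 179 CPM in the double mutant, with an adjusted p of 0.0378 with the block and 0.125 without it. For unc-89 the groups overlapped, and the adjusted p was 0.0349 with the block and 0.255 without it. Of 12 pharynx genes the pharyngeal myosins myo-1 and myo-2 passed; both rose in each replicate pair, overlapped as groups, and had adjusted p values of 0.337 and 0.239 without the block. DESeq2, which called 7.98% of all genes tested (6.14% higher and 1.84% lower), called 10 muscle and 4 pharynx genes. Without daf-2 replicate 3, with the block, 11 muscle and 4 pharynx genes were called and the muscle median fell to 0.68, while without the block as well 1 muscle and 0 pharynx genes were called.

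**Figure D3:**
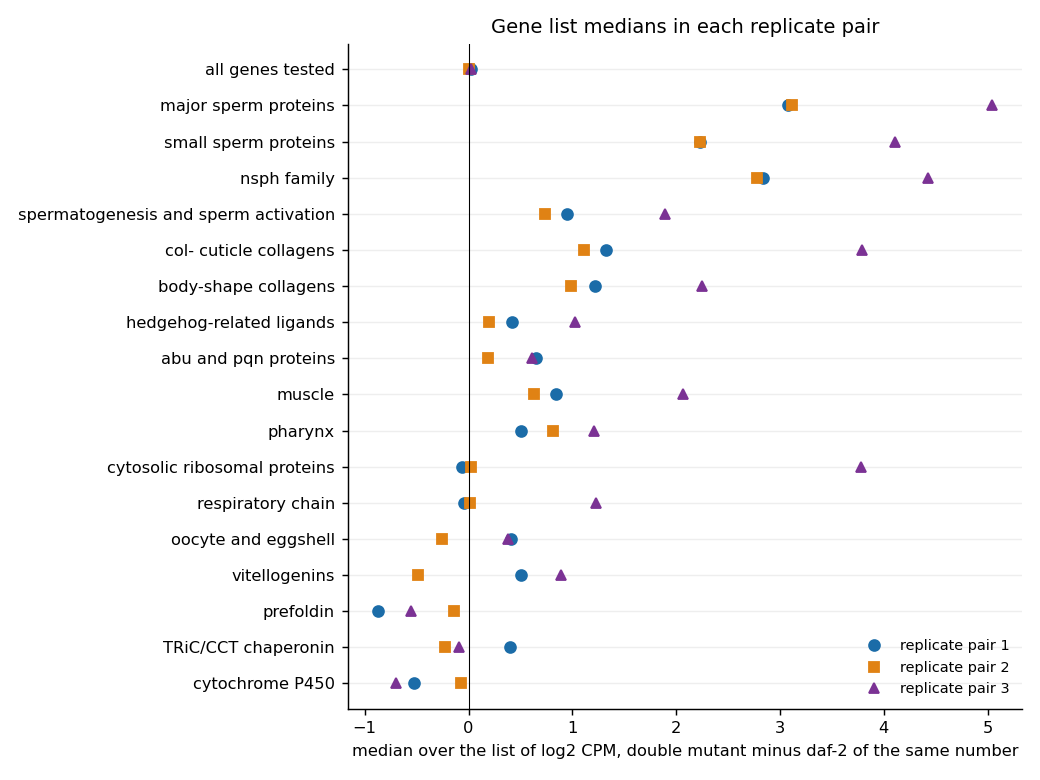
Median log2 CPM difference, double mutant minus daf-2 of the same replicate number, for 17 gene lists and for all genes tested; circles, squares and triangles are replicate pairs 1, 2 and 3. Sperm, nsph and collagen lists lie above 0 in every pair, whereas the ribosomal proteins lie near 0 in pairs 1 and 2 (-0.06 and 0.02) and at 3.78 in pair 3.

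Ribosomal protein transcripts differed in 1 replicate pair only. All 78 tested genes had positive log2 fold changes with a median of 1.04, yet 0 passed with edgeR or DESeq2 (1 had an unadjusted p under 0.05 with edgeR). The pair medians were -0.06, 0.02 and 3.78, and the median without daf-2 replicate 3 and without the block was -0.02. For the sperm and collagen lists the first 2 pairs gave medians of 3.08 and 3.12 for the MSPs and 1.32 and 1.11 for the col- genes.

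Leaving out daf-2 replicate 3 kept most calls and added many, above all among the lower genes. With the block kept, the fit then rests on pairs 1 and 2 and has 1 residual degree of freedom; it called 1140 genes higher (7.98% of 14291) and 520 lower (3.64%), and its p-values rest on a spread shared by all genes. Without the block, which keeps double mutant replicate 3 in the comparison, 732 were higher and 224 lower. Of the 696 higher and 106 lower genes, 601 and 76 were also called in the second of these fits, and 693 and 95 in the first, in each case in the same direction. Read the other way, 60.8% of the higher and 18.3% of the lower calls of the first fit, and 82.1% and 33.9% of those of the second, were calls with all 6 libraries. All 27 MSP genes and 67 col- genes passed without daf-2 replicate 3 and without the block. The share of short genes also differed between libraries, and a fit that removes a trend with transcript length in each library called 262 genes higher (1.81%) and 26 lower (0.179%), 1.99% together, with 23 of 27 MSP genes, 10 small sperm protein genes and 14 col- genes among them. Called with all 6 libraries, without daf-2 replicate 3 and the block, and with the length adjustment alike were 257 higher and 24 lower genes. Replicates 1 and 2 alone gave calls in 8.89% of 13782 genes, 5.33% higher and 3.56% lower.

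**Figure D4:**
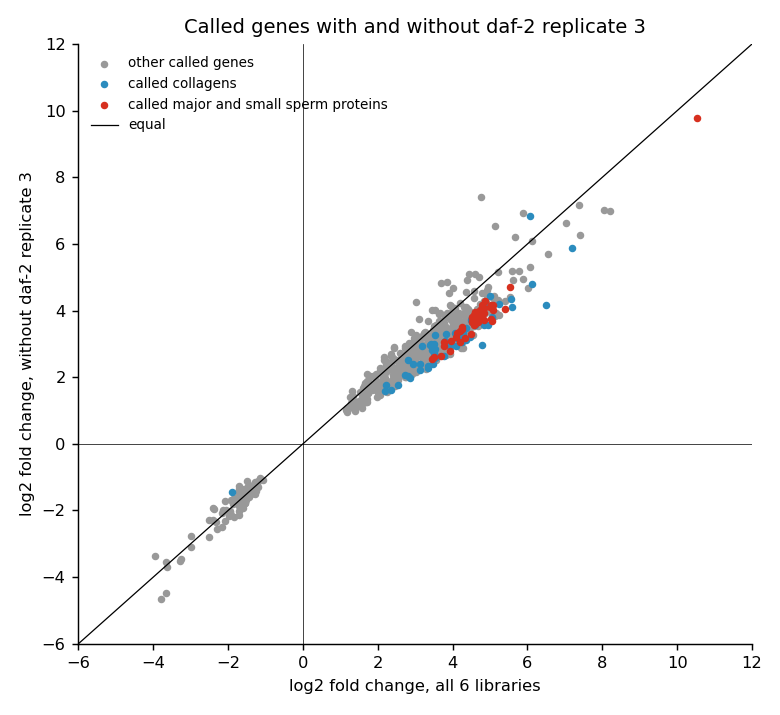
Log2 fold change of called genes without daf-2 replicate 3 (vertical axis, replicate block kept) against that with all 6 libraries (horizontal axis); the line marks equal values. No gene changes sign, and most collagens (blue) and sperm protein genes (red) lie below the line, that is, with a smaller rise once that library is left out.

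Several of the lower genes varied little among the libraries of a genotype. The gene scb-1 (WBGene00010407; chromosome V, 11118766 to 11119705), known for setting sensitivity to bleomycin in wild C. elegans strains, had 33.4, 29.1 and 34.4 CPM in daf-2 and 6.65, 6.16 and 5.39 CPM in the double mutant (a log2 fold change of -2.41, SE 0.28, adjusted p = 0.00625, edgeR). The C-type lectin gene clec-222 (WBGene00007283; chromosome V, 11271351 to 11272467) had 38.7, 25.4 and 32.8 CPM in daf-2 and 1.95, 3.56 and 2.23 CPM in the double mutant (-3.67, SE 0.38, adjusted p = 0.00625). For both genes the groups were far apart relative to the spread within them. The ABC transporter gene hmt-1, needed for tolerance to heavy metals, had 48.9, 82.3 and 78.5 CPM in daf-2 and 13.4, 12.8 and 9.79 CPM in the double mutant (-2.52). Its N2 libraries held 13.4, 15.9 and 14.3 CPM, near the double mutant level. The gene hsr-9, the 53BP1 homologue, had 205, 335 and 572 CPM in daf-2 and 83.6, 76.3 and 83.6 CPM in the double mutant (-2.07, SE 0.39, adjusted p = 0.0231). Its log2 fold change for pfd-6 over N2 was -2.06 and did not pass there (adjusted p = 0.146).

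The transcript H39E23.3 was, after hsr-9, the most abundant in daf-2 of the 15 steepest falls. It had 204, 288 and 346 CPM in daf-2 and 15.8, 28.9 and 48 CPM in the double mutant, without overlap (log2 fold change -3.29, SE 0.33, adjusted p = 0.00625, edgeR). In N2 it had 0.754, 0.883 and 0.276 CPM, so the double mutant level lay between N2 and daf-2. The receptor gene dmsr-16, named after its values were seen, had 4.91, 3.54 and 7.23 CPM in daf-2, 0.478, 0.198 and 0.622 CPM in the double mutant and at most 0.286 CPM in N2. Its daf-2 libraries stood apart, while double mutant replicate 2 lay within the N2 range.

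Some lower genes were neighbours. On chromosome V, C49G7.12 (4038410 to 4039940), C49G7.10 (4040409 to 4042021) and the infection response gene irg-2 (4042181 to 4043601) lie side by side and were all lower, by log2 fold changes of -3.27, -1.51 and -1.83. In all 3 genes daf-2 replicate 3 was the lowest daf-2 library, and the adjusted p without the block was 0.0429, 0.191 and 0.136. The pud-3 and pud-4 genes, on chromosome V from 2324634 to 2327282, were lower by log2 fold changes of -1.90 and -1.95; pud-4 had 115, 73.1 and 79.9 CPM in daf-2 and 24.1, 20.4 and 23.5 CPM in the double mutant. Near each other on chromosome IV, F17E9.2 (8355892 to 8356503) fell and F17E9.5 (8345818 to 8346546) rose. The first had 16.3, 7.08 and 15 CPM in daf-2 and 1.18, 0.956 and 0.311 CPM in the double mutant, and the second had 0.409, 0.265 and 0.0968 CPM and 7.76, 5.80 and 18.3 CPM. For both the libraries of the groups did not overlap.

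**Figure D5:**
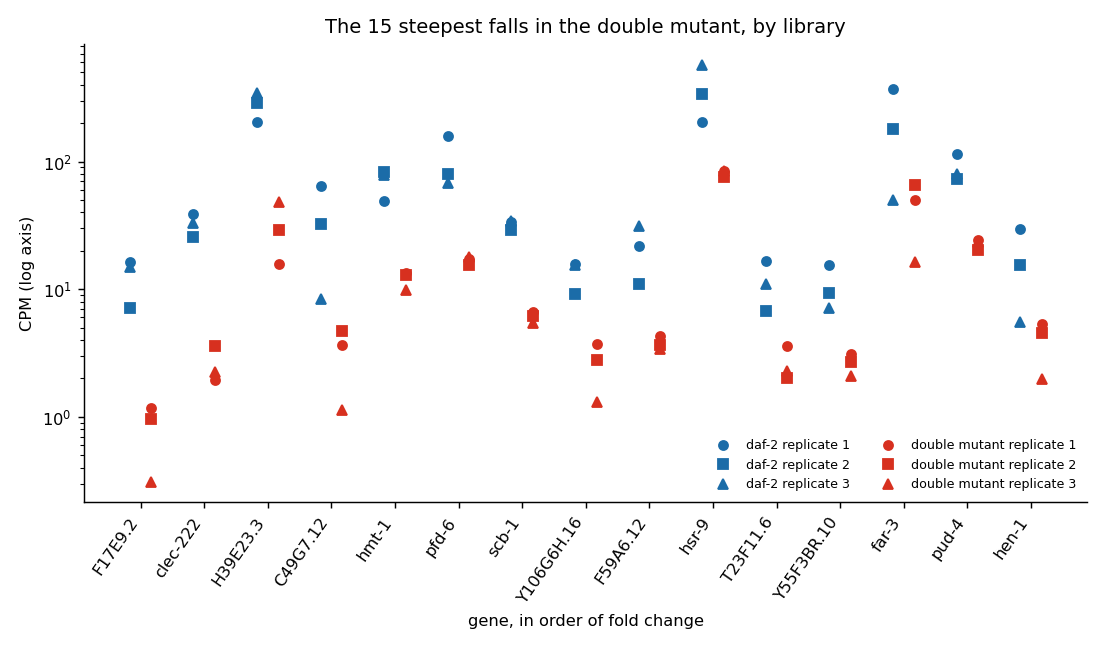
CPM (log axis) of the 15 steepest falls among called genes that averaged 10 CPM or more in daf-2 and fell in every replicate pair; blue marks daf-2, red the double mutant, and shapes the replicate number. The groups are separate for every gene shown except far-3, where daf-2 replicate 3 (49.7 CPM) lies below 2 double mutant libraries.

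Folding and stress genes gave few calls, in small lists and where 5.53% of all genes tested were called. Every one of the 7 prefoldin genes had a log2 fold change below 0 (median -0.40), and only pfd-6 passed; pfd-5 had a log2 fold change of -0.53 (adjusted p = 0.314, edgeR) and pfd-4 of -0.50 (adjusted p = 0.346). No TRiC/CCT chaperonin gene of 8 passed with edgeR or DESeq2 (0 with an unadjusted p under 0.05 in edgeR, median 0.04). Of 18 tested tubulin and actin genes 15 had log2 fold changes above 0 (median 0.76, and 0.17 without daf-2 replicate 3). None of the 18 was called higher with edgeR. The only one called was the beta-tubulin gene tbb-6, which fell from 21, 20.1 and 11.1 CPM to 5.81, 6.33 and 5.18 CPM (log2 fold change -1.54, adjusted p = 0.0252, edgeR). DESeq2 called 1 of the 18 higher and 1 lower. The small heat shock gene hsp-16.1 was the only one of 21 heat shock protein genes to pass; without daf-2 replicate 3, with the block, 1 of 20 was higher and 4 were lower. It had 18.6, 23.6 and 17.2 CPM in daf-2 and 5.62, 13.5 and 4.56 CPM in the double mutant, with an adjusted p of 0.0403 with the block and 0.147 without it. It has a near-identical copy in the genome, so its counts are uncertain.

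Genes downstream of insulin signalling also gave few calls, in small lists and where 5.53% of all genes tested were called. Of 27 tested genes raised through DAF-16, hsp-16.1 alone passed and the median log2 fold change was 0.14; cyp-35B1 had -1.28 (adjusted p = 0.0701, edgeR, and adjusted p = 0.0474 without the block). Without daf-2 replicate 3, with the block, 2 of 26 were higher and 7 lower, beside 7.98% and 3.64% of all genes tested. The median was then -0.05. Without the block as well 0 were called (median -0.13). DESeq2 with all 6 libraries called 1 higher and 3 lower. Of 15 tested genes known to be lowered in daf-2 mutants, 2 were higher in the double mutant. The F55G11.2 gene had 0.852, 1.13 and 0.355 CPM in daf-2 and 4.67, 6.46 and 3.11 CPM in the double mutant (2.67, SE 0.36, adjusted p = 0.00783). The lysozyme gene ilys-5 had 0.477, 0.86 and 0.645 CPM in daf-2 and 3.42, 3.03 and 2.80 CPM in the double mutant (2.23, SE 0.39, adjusted p = 0.0166). The groups did not overlap in either gene.

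Metabolic genes moved singly. Of 87 tested genes of fatty acid beta-oxidation 5 were higher (median -0.03), where 4.8% of all genes tested were higher and 0.731% lower. The acyl-CoA dehydrogenase gene acdh-8 went from 0.239, 0.331 and 0.355 CPM to 3.20, 3.16 and 7.15 CPM (log2 fold change 3.77, SE 0.41, adjusted p = 0.00625, edgeR). The acyl-CoA synthetase gene acs-2 had 3.71, 10.8 and 0.968 CPM in daf-2 and 50.5, 76.8 and 5.28 CPM in the double mutant. Both genotypes were lowest in replicate 3, the groups overlapped, and the adjusted p was 0.00625 with the block and 0.165 without it. Of 29 lipases and fatty acid binding proteins, far-3 and far-6 were lower. Transcripts of far-6 went from 40.7, 47.3 and 45.2 CPM to 17.8, 24.2 and 22.5 CPM, without overlap (-1.06, SE 0.24, adjusted p = 0.0484), and those of far-3 had an adjusted p of 0.166 without the block. Of 55 cytochrome P450 genes 2 were lower and none was higher (median -0.58), and 11 of the 55 had a log2 fold change above 0. With the block but without daf-2 replicate 3, 7 of 50 were lower, where 3.64% of all genes tested were lower.

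With daf-2 intact, few genes were called between pfd-6 and N2. Between pfd-6 and N2, 17 of 15134 genes (0.112%) passed, 0.0991% higher and 0.0132% lower, in a fit to all 12 libraries with the replicate number as a block. Of the 15 higher genes 14 had under 0.1 CPM in every N2 library, and 13 of these lie in a single stretch of chromosome V (17339084 to 17551209) and were present in daf-2 and the double mutant too. One of them, the F-box gene fbxb-7, averaged 0 CPM in N2, 7.59 in pfd-6, 8.91 in daf-2 and 10.2 in the double mutant. These 13 genes set N2 apart from the other 3 genotypes. The N2 and pfd-6 libraries are separate from those of the main comparison. Called in both were 3 genes: pfd-6 and scb-1, lower in both, and Y49G5A.1, higher in both. Transcripts of scb-1 were 28.5, 24.9 and 18.1 CPM in N2 and 10.5, 6.53 and 6.44 CPM in pfd-6 (a log2 fold change of -1.62, adjusted p = 0.0346, edgeR). Transcripts of Y49G5A.1 were 0.935, 0.785 and 2.56 CPM in N2, 9.5, 6.68 and 24.7 CPM in pfd-6, 1.26, 0.761 and 3.36 CPM in daf-2 and 6.54, 5.11 and 9.17 CPM in the double mutant; its adjusted p in the daf-2 background was 0.0169 with the block and 0.101 without it.

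With edgeR no MSP or col- gene was called for pfd-6 over N2, where 0.112% of all genes tested were called. Of the 27 MSP genes 0 were called with edgeR or DESeq2 and 0 had an unadjusted p under 0.05 (median log2 fold change -0.36). Summed MSP transcripts were 22.7, 17.9 and 116 CPM in N2 and 86.3, 13.4 and 22.3 CPM in pfd-6, all below the double mutant. Of the 117 col- genes edgeR called 0 (14 at an unadjusted p under 0.05) and DESeq2 called 1, lower (median -1.51), in a comparison that holds pfd-6 replicate 3, where summed col- transcripts were 1940 CPM.

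The difference between the 2 responses was tested directly as an interaction, the double mutant over daf-2 minus pfd-6 over N2. It was called for 36 of 15134 genes (0.238%), 8 above 0 (0.0529%) and 28 below 0 (0.185%). Without daf-2 replicate 3 it was called for 4 genes, all below 0, so no interaction above 0 kept its call. Of the 36, 20 were also called between the double mutant and daf-2, 8 higher and 12 lower in the double mutant. Of the other genes, 14 were the same genes that N2 nearly lacked, 13 of them in the stretch of chromosome V, and none of the 14 was called between the double mutant and daf-2. For alg-3 the interaction was 3.90 (adjusted p = 0.0289, edgeR) and for clec-222 -4.67 (adjusted p = 0.0148). For the collagen col-38, chosen here because the interaction called it, the level was 3.07, 1.22 and 1.94 CPM in daf-2 and 14.1, 9.29 and 19.4 CPM in the double mutant, but 4.65, 4.55 and 4.56 CPM in N2 and 0.883, 1.06 and 0.386 CPM in pfd-6 (interaction 5.34, adjusted p = 0.0148). None of the 27 MSP genes passed the interaction with edgeR, although all 27 had an unadjusted p under 0.05 (median 4.88) and DESeq2 called all 27.

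Against N2, with which the double mutant differs by both mutations, 802 genes were higher (5.3% of 15134) and 201 lower (1.33%), or 6.63% together. This comparison shares the double mutant libraries with the main one, and its values are given side by side only. Of the 27 MSP genes 11 were higher (median log2 fold change 3.14). For nas-3, an astacin protease gene lower in the double mutant than in daf-2 (-2.99), the log2 fold change over N2 was -4.05, with 8.99, 7.69 and 7.39 CPM in N2 and 0.698, 0.329 and 0.57 CPM in the double mutant.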

How the data were processed

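Whole day 1 adults were sequenced as paired-end mRNA libraries. Per the file headers, what the authors deposited for each gene is an expected count with no depth scaling. The builds ce11 and WBcel235 and the tools RSEM 1.3.1, StringTie 1.3.3, HISAT2 2.0.5, R 3.1.3 and limma 3.24.15 are listed in the submitters' processing notes, without roles. Of 46904 gene IDs, 44017 matched a symbol and 46817 the WBcel235 annotation (Ensembl release 115).

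Expected counts were rounded, genes with at least 10 counts in at least 3 of the 6 libraries kept, and libraries scaled by TMM. edgeR 4.0.16 (R 4.3.3) quasi-likelihood models held genotype and replicate number, with Benjamini-Hochberg adjustment and a threshold of 0.05. CPM are TMM-scaled. Per-sample values from N2 and pfd-6 libraries, list sums and the interaction come from all 12 libraries. Replicate numbers were taken as pairs because the rule for this comparison set them as the block. Deviations of same-numbered libraries from their group means correlated at 0.291, 0.194 and 0.109 over 14502 genes. Those of different-numbered libraries correlated at -0.225 to 0.015. Libraries of 1 genotype all differed by more than sampling noise. Labels speak of biological repeats but not of separate cultures, so p-values measure the spread between these samples. Fold bounds use 3 counts over the group.

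The comparison and the 66 gene lists were chosen with earlier results of these data known. Named genes were the 15 steepest rises and 15 steepest falls among called genes that averaged 10 CPM or more in whichever genotype was higher and moved 1 way in all 3 pairs, hsf-1, daf-16, daf-2 and pfd-6, up to 4 members per list with the smallest p and the most abundant members. Alternatives were no block, DESeq2 1.42.0, limma-voom (limma 3.58.1), RLE size factors, other filters, all 12 libraries, a length offset (spline, 5 degrees of freedom), a threshold of 0.01 and each library left out. Tested on simulated data over 14050 genes, the fit recovered 7.46% of 2-fold, 68.7% of 4-fold and 96.9% of 8-fold changes, and called 0.108% of unchanged genes. Changes were placed only in genes above a set mean count, and counts were drawn independently for each gene. Recovery was not measured for scarcer genes. Isoforms, GC content and sequences were not analysed here.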

Additional observations from a re-analysis of the deposited data

Results flagged for a closer look

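For 8 of the genes named by rule, 7 of them called between the double mutant and daf-2, the response to the pfd-6 mutation differed between the daf-2 and the wild-type background by the interaction test (edgeR, adjusted p under 0.05). The interaction is the log2 fold change of the double mutant over daf-2 minus that of pfd-6 over N2, and it was below 0 for 5 of the genes and above 0 for 3.

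For ins-19, an insulin-like peptide gene, the fitted interaction was -9.65, a size that depends on the prior count because N2 held 1 count over its 3 libraries. Its levels averaged 0.00866 CPM in N2, 3.36 in pfd-6, 0.575 in daf-2 and 0.154 in the double mutant, and it was not called between the double mutant and daf-2. The interaction was -4.87 for F17E9.2, which fell by 3.94 in the daf-2 background and had 0.95 in the wild-type background. It was -4.67 for clec-222 (-3.67 and 0.98), -3.26 for nas-3 (-2.99 and 0.22) and -2.58 for Y55F3BR.10 (-1.97 and 0.56).

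Those above 0 were nsph-4.2 at 5.80 (4.80 in the daf-2 and -1.08 in the wild-type background), the lectin gene clec-10 at 4.09 (4.59 and 0.50) and alg-3 at 3.90 (3.96 and -0.01). The clec-10 transcript had 12.8 to 15.6 CPM in N2 and at most 0.0662 CPM in daf-2, and reached 1.54, 2.21 and 0.725 CPM in the double mutant. Without daf-2 replicate 3 the interaction was called for 4 genes in all, every one below 0. None of the interactions above 0 was then called, those of nsph-4.2, clec-10 and alg-3 included.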

How the results depend on the processing

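The 100 named genes that were called and the 3 others kept their direction in 1768 of 1772 gene and setting combinations. The 4 exceptions were daf-16 (-0.05 without daf-2 replicate 1 and -0.12 without double mutant replicate 1) and hsf-1 (-0.13 and -0.20), neither of which passed with all 6 libraries; the cause was not tested. Over the fits that left out 1 library daf-16 ranged from -0.12 to 0.46 and hsf-1 from -0.20 to 0.28.

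The count of 802 called genes depended on the settings more than the directions did. Without the replicate block it was 702 (629 higher, 73 lower), within 1.5 times, and with all 12 libraries and no replicate block it was 465 (409 higher, 56 lower). With all 12 libraries and the replicate block 189 were lower. No filter on low counts gave 1303 (1067 and 236), the length offset with the replicate block 288 (262 and 26), replicates 1 and 2 alone 1225 (491 lower), and an adjusted p under 0.01 209 (198 and 11). DESeq2 called 267 lower, and 224 were lower without daf-2 replicate 3 and the replicate block. Leaving out 1 library at a time with the block gave 0 to 1660 called, 0 to 1140 higher and 0 to 639 lower. Each such fit rests on 2 full pairs and 1 residual degree of freedom. It called 0 without daf-2 replicate 2 (2407 with an unadjusted p under 0.05) and 0 without double mutant replicate 2 (2021), 224 without daf-2 replicate 1, 73 without double mutant replicate 1, 1660 without daf-2 replicate 3 and 1397 without double mutant replicate 3.

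Of the lists, the MSP genes called ranged from 0 to 27 when 1 library was left out, the small sperm protein genes from 0 to 26 and the col- genes from 0 to 78. Small sperm protein genes called were 10 with the length offset and the replicate block and 9 with all 12 libraries and no replicate block; col- genes called were 14 with the former and 24 with all 12 libraries, with or without the block. The interaction count of 36 was 21 without the replicate block, 1912 by DESeq2, 4 when daf-2 replicate 3 was left out and 65 when pfd-6 replicate 3 was. For pfd-6 over N2, DESeq2 called 93 genes. For the double mutant over N2, 487 were called without the replicate block, 1810 by DESeq2, 1720 when pfd-6 replicate 3 was left out and 1079 when daf-2 replicate 3 was. With 3 libraries a group, 2-fold changes were mostly below what the test could call.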
